A study of Mus musculus with 4 samples.

Results

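UDP-glucuronosyltransferase and sulfotransferase genes were followed in mouse liver before and after an acetaminophen overdose, in mice with and without the transcriptional coactivator YAP. The genes were taken as every symbol that starts with Ugt or Sult followed by a digit, together with Ugdh, Papss1 and Papss2, whose products make the cofactors of the transferases. Of 30827 genes named on the array, 35 met that rule with a probe set of their own, and 24 of the 35 had a mean level at or above 4.322, the 40th percentile of all named genes. No probe set was annotated to a Ugt1a symbol in the annotation used here, so the Ugt1a genes were not analysed here. One further probe set was shared by Ugt2a1 and Ugt2a2 and is given only as a reading of that probe set.

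The 4 arrays covered each combination of genotype and time once. The wildtype animals carried a floxed Yap gene, and the other genotype was a YAP knockout (YAP-KO). All mice were male and fasted. The 0 h livers came from fasted mice, and the 24 h livers were taken 24 h after an intraperitoneal injection of 300 mg/kg acetaminophen. Each array held RNA from 100 mg liver pieces of 3 mice, pooled for the array. The sources used here do not give the Cre driver, the cells that lost YAP, or the strain and age of the mice. With 1 array per group no difference between arrays has a replicate check, and no array of untreated mice at 24 h was among them. Time, handling and acetaminophen therefore cannot be told apart, and "24 h response" stands for the whole 24 h minus 0 h difference.

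Glucuronidation and sulfation are the conjugation reactions by which hepatocytes make phenols, steroids, bile acids and drugs more soluble. UDP-glucuronosyltransferases sit in the endoplasmic reticulum and transfer glucuronic acid from UDP-glucuronate, which the enzyme encoded by Ugdh makes from UDP-glucose. Cytosolic sulfotransferases transfer sulfate from PAPS, which the bifunctional synthases encoded by Papss1 and Papss2 make from sulfate. Most of an acetaminophen dose is cleared through these reactions while they keep up, and the remainder feeds the oxidation that yields the toxic quinone imine. In humans UGT1A enzymes and SULT1A1 are the main catalysts named for acetaminophen.

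At 24 h after acetaminophen, all 10 Ugt genes above the filter were at least 2-fold lower than at 0 h in wildtype. In YAP-KO 8 of the 10 were. The 10 include 2 Ugt3 genes, whose human counterparts are known to use sugars other than glucuronic acid. The estrogen sulfotransferase gene Sult1e1 read 9.52 in wildtype at 24 h on the log2 scale. At 0 h it read 4.47, a level equal to the median of all probe sets on that array. Genes of cofactor supply did not move together: Ugdh was higher at 24 h in wildtype and lower in YAP-KO, Papss2 was lower in both, and Papss1 was at least 2-fold higher in YAP-KO (1.57) but under 2-fold in wildtype (0.70). In wildtype, 15 of the 24 genes were at least 2-fold lower, beside 5.88% of the 18500 genes kept, and 2 were at least 2-fold higher, beside 12.7%. In YAP-KO, 12 were at least 2-fold lower, beside 2.22% of all genes, and 1 was at least 2-fold higher, beside 4.74%. The median difference over the 24 genes was -1.68 in wildtype and -1.05 in YAP-KO, where the median over all genes kept was 0.07 in each. Of the 15 genes lower in wildtype, 11 were also at least 2-fold lower in YAP-KO. The matching overlap over all genes was not counted, so whether 11 of 15 is particular to these genes is not known.

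The promoters of Sult1e1 and Ugdh, the 2 genes past 2-fold on the higher side of the wildtype 24 h response, are shown with that of Ugt2b1, the UDP-glucuronosyltransferase gene with the lowest 24 h response in both genotypes. Each window runs from 250 bases before to 50 bases after the gene start (RefSeq, GRCm38.p6), 5′ to 3′ in the direction of the gene. The windows lie on the minus strand at chr5:87591562-87591861 for Sult1e1, chr5:65435793-65436092 for Ugdh and chr5:86926454-86926753 for Ugt2b1. Capitals mark every match, on either strand, to 6 motifs: TGACNNNGC (antioxidant response element core), GCGTG (AHR-ARNT core), TGANTCA (AP-1), GGAATG (TEAD), GTTAAT (HNF1 motif) and AGGTCA (nuclear receptor motif). The HNF1 and nuclear receptor motifs are each a single arm of a full site, so a match is not a whole site.
Sult1e1: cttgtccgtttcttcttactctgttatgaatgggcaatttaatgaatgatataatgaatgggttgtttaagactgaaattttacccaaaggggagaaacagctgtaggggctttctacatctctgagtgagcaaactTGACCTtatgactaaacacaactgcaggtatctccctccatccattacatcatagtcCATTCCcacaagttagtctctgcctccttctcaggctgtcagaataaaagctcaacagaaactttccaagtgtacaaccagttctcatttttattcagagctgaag
Ugdh: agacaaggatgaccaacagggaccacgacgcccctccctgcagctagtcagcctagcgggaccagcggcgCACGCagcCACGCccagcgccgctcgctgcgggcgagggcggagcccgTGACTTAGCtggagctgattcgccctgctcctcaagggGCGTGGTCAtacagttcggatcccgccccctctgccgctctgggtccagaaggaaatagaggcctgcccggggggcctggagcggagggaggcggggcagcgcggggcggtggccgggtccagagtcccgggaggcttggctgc
Ugt2b1: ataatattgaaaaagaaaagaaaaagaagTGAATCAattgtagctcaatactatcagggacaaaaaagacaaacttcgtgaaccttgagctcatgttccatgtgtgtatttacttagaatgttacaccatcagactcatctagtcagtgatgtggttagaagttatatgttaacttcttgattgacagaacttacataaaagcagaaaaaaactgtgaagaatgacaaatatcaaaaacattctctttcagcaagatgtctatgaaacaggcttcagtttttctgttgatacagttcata

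The Ugdh window held the antioxidant response element core at 132 and 94 bases before the gene start, the nearer match overlapping an AHR-ARNT core, and further AHR-ARNT cores at 180 and 172 bases. The Sult1e1 window held a TEAD motif 56 bases and a nuclear receptor motif 113 bases before the start. The Ugt2b1 window held an AP-1 motif 221 bases before the start and no match to the other 5. Promoters of 300 bases were given for 20 of the 24 genes, with 24 windows in all. Over those 24 windows the antioxidant response element core was present in 1, beside 12.4% of all 32851 promoters of that length. AP-1 was present in 6, beside 7.81%, TEAD in 6, beside 14.7%, and the nuclear receptor motif in 9, beside 16.3%. The HNF1 motif was present in 5, beside 7.10%, and the AHR-ARNT core in 5, beside 32.4%. These letters describe the windows and say nothing of binding.

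**Figure D1:**
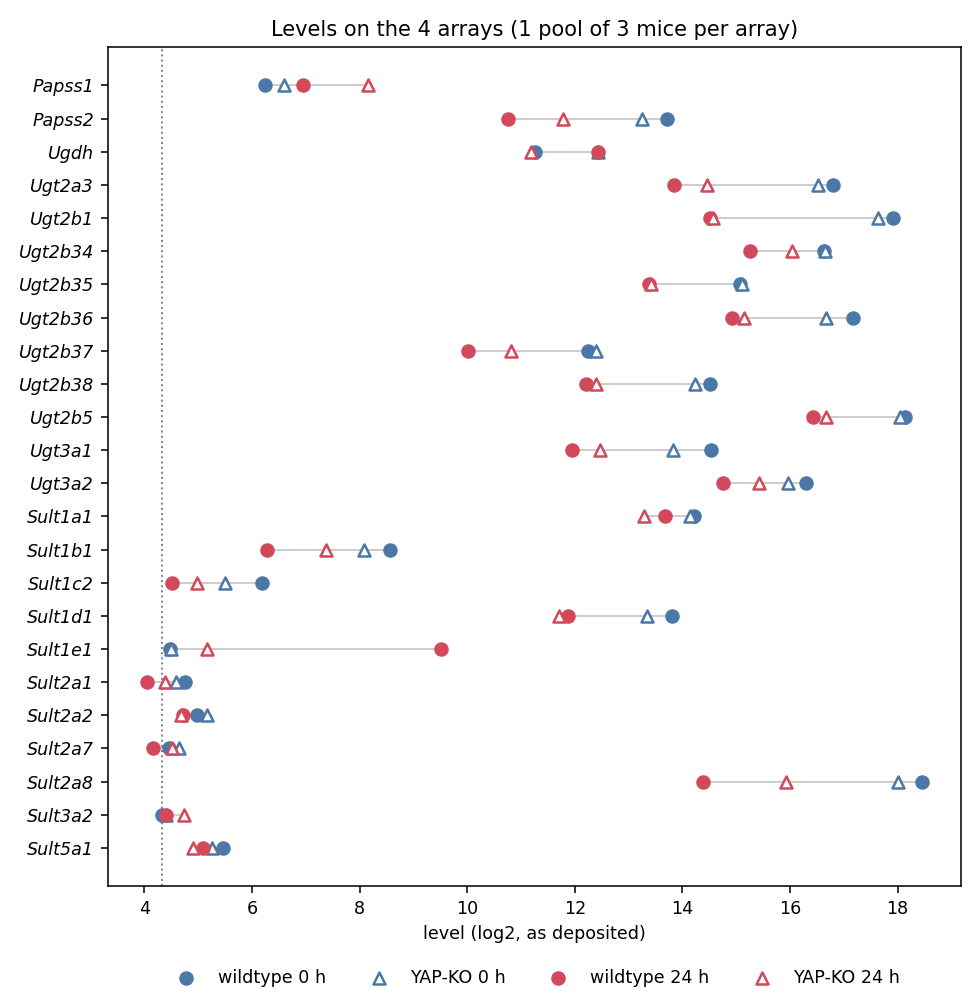
Level (log2, as deposited) of the 24 genes above the filter on each of the 4 arrays, 1 symbol per array, with a grey line from the lowest to the highest. Red symbols (24 h) lie left of blue symbols (0 h) for all 10 Ugt genes, while Sult1e1 has a single high array, wildtype at 24 h (9.52). For Ugdh the wildtype 24 h symbol covers the YAP-KO 0 h symbol, both at 12.43. The dotted line is the filter level of 4.322; levels of different probe sets are not to be compared with each other.

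Cofactor genes come at the head of both routes. Levels are given for each gene as 0 h then 24 h within a genotype. Ugdh (Entrez gene 22235) read 11.26 then 12.43 in wildtype and 12.43 then 11.18 in YAP-KO. Its high arrays were thus YAP-KO before the overdose and wildtype after it, and its low arrays were the opposite pair. Ugdh was the one gene of the 24 past 2-fold in all 5 contrasts. The 24 h response was 1.17 in wildtype but -1.25 in YAP-KO, and the difference of the responses (YAP-KO minus wildtype) was -2.42. YAP-KO was 1.17 higher than wildtype at 0 h and 1.25 lower at 24 h (a difference of -1.25). Set against the 0 h array of the other genotype, the 24 h levels differed by 0.00 in wildtype and -0.08 in YAP-KO, so each response of Ugdh rests on which single 0 h array it is read against.

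Papss2 (Entrez gene 23972), encoding the PAPS synthase that predominates in liver, read 13.71 then 10.75 in wildtype and 13.25 then 11.79 in YAP-KO. Both 24 h arrays lay below both 0 h arrays, a separation whose share over all genes was not counted. The 24 h response was -2.96 in wildtype (7.78-fold lower) and -1.46 in YAP-KO (2.75-fold lower), and YAP-KO was 1.04 higher than wildtype at 24 h. Papss1 (Entrez gene 23971), the broadly expressed synthase, read 6.25 then 6.95 in wildtype and 6.59 then 8.16 in YAP-KO. Its highest array was YAP-KO at 24 h, 1.21 above wildtype at that time. The 24 h response of Papss1 was 0.70 in wildtype, under 2-fold, and 1.57 in YAP-KO.

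All 10 Ugt genes above the filter were at least 2-fold lower at 24 h in wildtype, beside 5.88% of all genes. Their differences ran from -1.39 to -3.39 (median -2.24). In YAP-KO 8 of the 10 were at least 2-fold lower, beside 2.22% of all genes. The range was -0.54 to -3.07 (median -1.56). Of these genes 7 belong to the Ugt2b subfamily, whose members are known for conjugating steroids, bile acids and drugs, 1 to Ugt2a and 2 to Ugt3. Their copies are similar in sequence, so probe sets may share part of their signal and the 10 readings need not be separate observations. The arrays measure whole liver, in which fewer hepatocytes and less RNA per hepatocyte cannot be told apart.

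Ugt2b1 (Entrez gene 71773) read 17.91 then 14.52 in wildtype and 17.64 then 14.57 in YAP-KO. The 24 h arrays of the genotypes nearly coincided, and the responses were -3.39 in wildtype (10.5-fold lower) and -3.07 in YAP-KO (8.40-fold lower). Ugt2a3 was the next lowest, with 16.80 then 13.84 in wildtype, 16.52 then 14.45 in YAP-KO, and responses of -2.96 and -2.07. In both genes each 24 h array lay at least 2-fold below each 0 h array, and the share of all genes with such a gap was not counted.

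Ugt2b38 read 14.52 then 12.20 in wildtype and 14.24 then 12.39 in YAP-KO. Ugt2b36 read 17.17 then 14.92 in wildtype and 16.67 then 15.15 in YAP-KO. Ugt2b37 read 12.25 then 10.02 in wildtype and 12.40 then 10.81 in YAP-KO. These 3 had wildtype responses of -2.32, -2.25 and -2.23 and YAP-KO responses of -1.85, -1.52 and -1.59, in that order. Ugt2b5 read 18.14 then 16.42 in wildtype and 18.04 then 16.67 in YAP-KO. Ugt2b35 read 15.07 then 13.38 in wildtype and 15.11 then 13.42 in YAP-KO, with the same response of -1.69 in both genotypes.

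Ugt2b34 was the 1 Ugt2b gene whose 24 h response in YAP-KO was under 2-fold. It read 16.64 then 15.25 in wildtype and 16.66 then 16.04 in YAP-KO. Responses were -1.39 in wildtype and -0.62 in YAP-KO, a difference of 0.77 that is itself under 2-fold. Between the genotypes at 24 h the 7 Ugt2b genes differed by 0.04 to 0.79, and at 0 h by -0.50 to 0.15, so none was 2-fold apart at either time on the deposited scale. Under quantile normalization Ugt2b34 was past 2-fold at 24 h, with YAP-KO 1.18 above wildtype and a difference of responses of 1.0.

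Ugt3 genes encode enzymes that, as known from the human proteins, use sugars other than glucuronic acid. Ugt3a1 read 14.54 then 11.95 in wildtype and 13.82 then 12.46 in YAP-KO. Ugt3a2 read 16.30 then 14.75 in wildtype and 15.96 then 15.42 in YAP-KO. Both were at least 2-fold lower in wildtype (-2.59 and -1.55), whereas in YAP-KO the responses were -1.36 and -0.54. Their differences of responses, 1.23 and 1.01, were the 2 among the Ugt genes at or past 2-fold on the deposited scale. Array median centring put that of Ugt3a2 at 0.96. Ugt8a, which encodes the ceramide galactosyltransferase of myelin, was below the filter, at 4.17 or less. The probe set shared by Ugt2a1 and Ugt2a2, genes known from olfactory tissue, read 4.63 then 4.06 in wildtype and 4.98 then 4.10 in YAP-KO.

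**Figure D2:**
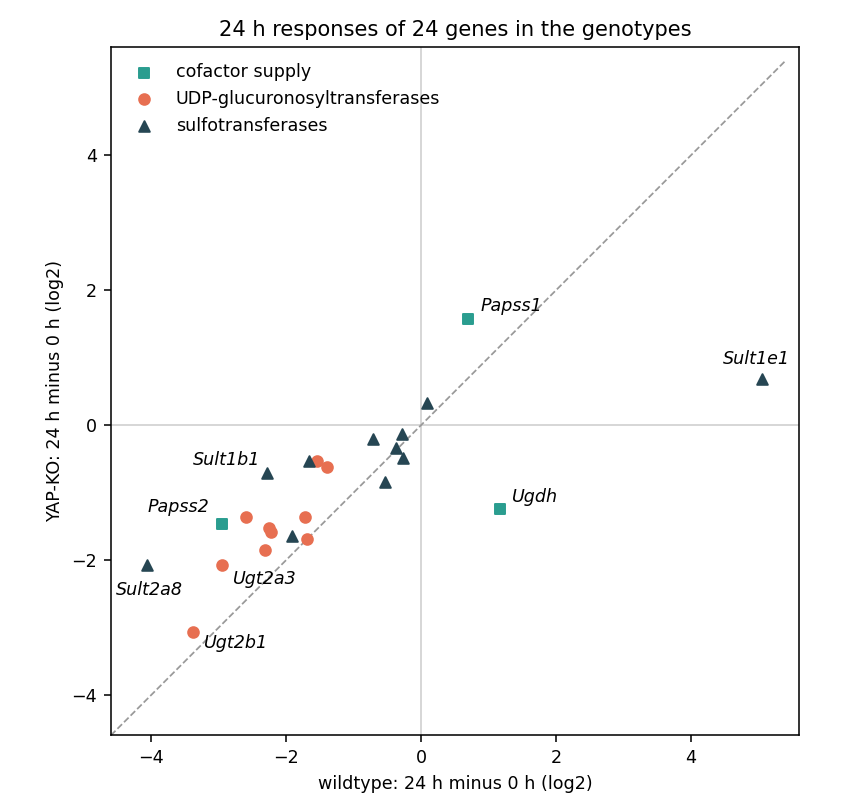
24 h minus 0 h difference (log2) in wildtype (x axis) against YAP-KO (y axis) for the 24 genes above the filter; each point is 1 gene, and the dashed line marks equal differences. Sult1e1 (5.05, 0.68) and Ugdh (1.17, -1.25) lie far below the line, and the Ugt genes lie in the lower left quadrant on or above it.

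Among sulfotransferase genes Sult2a8 and Sult1e1 had the largest wildtype 24 h responses in size, in opposite directions. Of 11 sulfotransferase genes above the filter, 4 were at least 2-fold lower in wildtype and 1 was higher; in YAP-KO 2 were lower and none was higher. Over all genes 5.88% were lower and 12.7% higher in wildtype, and 2.22% and 4.74% in YAP-KO, so 1 of 11 higher in wildtype is close to the share over all genes. The 4 were Sult2a8, Sult1b1, Sult1d1 and Sult1c2. Sult1a1, the phenol sulfotransferase gene whose human counterpart acts on acetaminophen, read 14.22 then 13.68 in wildtype and 14.14 then 13.29 in YAP-KO. Its responses of -0.54 and -0.85 were under 2-fold in both genotypes on the deposited scale, and under quantile normalization the YAP-KO response was -1.11, past 2-fold.

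Sult1e1 (Entrez gene 20860) encodes the sulfotransferase that inactivates estrogens. It read 4.47 then 9.52 in wildtype and 4.49 then 5.17 in YAP-KO. One array was high, and the other 3 lay within 1 log2 unit of the filter level. The 24 h response was 5.05 in wildtype against 0.68 in YAP-KO, and the difference of the responses was -4.37. No detection calls were used, so whether the 3 low readings were above background is not known. The neutrophil, monocyte and macrophage, Kupffer cell, endothelial and biliary marker lists had their highest mean level on the same array, wildtype at 24 h. Not every marker did, and in the biliary list (5.72) Sox9 was the 1 gene at least 2-fold higher (2.53). The stellate cell and fibroblast list had its highest mean in YAP-KO at 24 h (7.2). Beside the counts below, 12.7% of all genes kept were at least 2-fold higher at 24 h in wildtype and 4.74% in YAP-KO. The mean level of 8 neutrophil markers was 4.97 then 6.73 in wildtype and 5.11 then 5.76 in YAP-KO, and 4 of the 6 above the filter were at least 2-fold higher in wildtype and 3 in YAP-KO, while Ly6g had a wildtype response of -0.63. The mean level of 8 monocyte and macrophage markers was 6.68 then 9.43 in wildtype and 6.59 then 8.68 in YAP-KO, and 6 of 8 were at least 2-fold higher in wildtype and 5 in YAP-KO. Of the 8, Cd68, Lyz2 and Chil3 differed between the genotypes at 24 h by -0.02, -0.01 and -0.04. YAP-KO was further below wildtype for Cd14 (-3.73), Csf1r (-1.27), Itgam (-0.98) and Adgre1 (-0.37), and above it for Ccr2 (0.46). The 5 Kupffer cell markers had mean levels of 8.32 then 9.86 in wildtype and 8.29 then 8.97 in YAP-KO, with 4 of 5 at least 2-fold higher in wildtype and 2 in YAP-KO. The 6 endothelial markers had mean levels of 8.79 then 10.45 in wildtype and 8.86 then 9.58 in YAP-KO, with 3 of 6 at least 2-fold higher in wildtype and 1 in YAP-KO, while Kdr had a wildtype response of -0.63. The part of these cells in the Sult1e1 reading was not tested.

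Sult2a8 (Entrez gene 76971, named 2810007J24Rik in the array annotation) encodes a liver sulfotransferase known in mice for acting on bile acids. It read 18.46 then 14.39 in wildtype and 18.01 then 15.93 in YAP-KO. Both 24 h arrays lay more than 2-fold below both 0 h arrays, again without a count over all genes. The response was -4.07 in wildtype (16.8-fold lower), the lowest of the 24 genes, and -2.08 in YAP-KO (4.23-fold lower). At 24 h YAP-KO was 1.54 above wildtype, and the difference of the responses was 1.99.

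Sult1b1, which acts on thyroid hormones and small phenols, read 8.57 then 6.28 in wildtype and 8.08 then 7.37 in YAP-KO. Its responses were -2.29 and -0.71, and YAP-KO was 1.09 higher at 24 h. Sult1d1, known in mice for acting on catecholamines, read 13.80 then 11.88 in wildtype and 13.35 then 11.70 in YAP-KO. Its responses of -1.92 and -1.65 differed by 0.27. Sult1c2 read 6.18 then 4.51 in wildtype and 5.50 then 4.97 in YAP-KO, and its responses were -1.67 and -0.53. For Sult1c2 part of the gap between the responses lay in the 0 h arrays, where YAP-KO was 0.68 below wildtype.

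The remaining sulfotransferase genes were near or below the filter level on every array. Sult2a1 and Sult2a2, hydroxysteroid sulfotransferase genes whose expression in adult mouse liver is known to be female-predominant, read 4.04 to 4.75 and 4.68 to 5.17. Sult2a7 lay between 4.16 and 4.64, Sult3a2 between 4.33 and 4.74 and Sult5a1 between 4.91 and 5.47. None of these 5 differed 2-fold in any contrast. Below the filter were 11 genes: Ugt8a, Sult1c1, Sult2a3, Sult2a4, Sult2a5, Sult2a6, Sult2b1, Sult3a1, Sult4a1, Sult6b1 and Sult6b2. Their levels ran from 3.09 to 4.46, and the largest difference between 2 arrays of the same genotype or the same time was 0.77 in size. Without detection calls a lack of change in these genes cannot be told from a lack of signal.

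In rows of neighbouring genes, Sult1e1 was the exception on chromosome 5 and Sult2a8 was the bright gene on chromosome 7. In the RefSeq gene order on chromosome 5, 8 Ugt2 genes with a probe set of their own are followed by Ugt2a1, Ugt2a2, Sult1b1, Sult1d1 and Sult1e1, with only pseudogenes and small RNA genes in between. Of the 11 that were measured singly, 10 were at least 2-fold lower in wildtype at 24 h, beside 5.88% of all genes. Sult1e1, at the end of the row, was higher. In YAP-KO, Ugt2b34 (-0.62), Sult1b1 (-0.71) and Sult1e1 (0.68) were under 2-fold. The others of the 11 were at least 2-fold lower there, beside 2.22% of all genes. On chromosome 7 the Sult2a genes form a row of 8 measured genes. Sult2a8 was at least 2-fold lower at 24 h in both genotypes, whereas the other 7 were near or below the filter level and under 2-fold in every contrast.

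**Figure D3:**
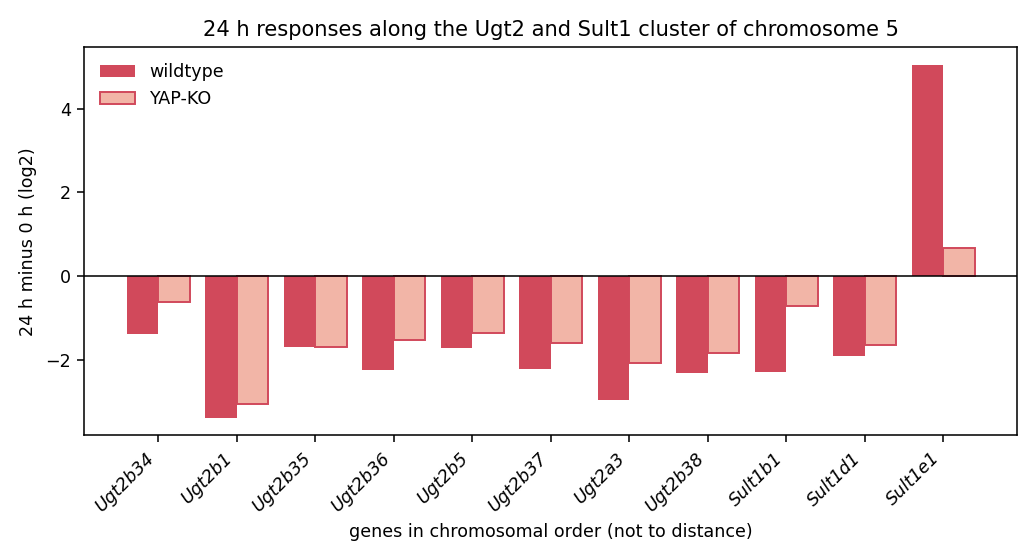
24 h minus 0 h difference (log2; bars from 0) of the 11 singly measured Ugt2 and Sult1 genes of chromosome 5 in chromosomal order, in wildtype (dark) and YAP-KO (pale), 1 array per group and no error. All bars but those of Sult1e1 (5.05 and 0.68) point down.

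Before the overdose the genotypes were close: 1 of the 24 genes, Ugdh, was at least 2-fold higher in YAP-KO, beside 1.02% of all genes, and 0 were 2-fold lower, beside 0.876%. The median difference was -0.20, beside -0.03 over all genes. The lowest was Ugt3a1 at -0.72. At 24 h, YAP-KO was at least 2-fold above wildtype for 4 genes, beside 3.23% of all genes: Sult2a8, Papss1, Sult1b1 and Papss2. Lower by that much were 2, Sult1e1 (-4.35) and Ugdh (-1.25), beside 5.73%. The median difference at 24 h was 0.34, beside -0.02 over all genes.

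For the difference of the 24 h responses (YAP-KO minus wildtype), 6 genes were at or past 2-fold on the higher side, beside 5.66% of all genes. They were Sult2a8 (1.99), Sult1b1 (1.58), Papss2 (1.5), Ugt3a1 (1.23), Sult1c2 (1.14) and Ugt3a2 (1.01), and each was lower at 24 h by less in YAP-KO than in wildtype. For each of the 6, part of this lay in the 0 h arrays, where YAP-KO minus wildtype was -0.34 (Ugt3a2) to -0.72 (Ugt3a1). On the lower side were Sult1e1 and Ugdh, beside 7.49%. The median over the 24 genes was 0.49, beside -0.01. This contrast is built from all 4 arrays and shares them with the contrasts above, so it adds no separate observation.

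The test that was run called none of these genes. With 1 residual degree of freedom it may miss real changes, so this outcome does not separate these genes from others. A limma model with additive terms for genotype and time was fitted to the 4 arrays and kept 1 residual degree of freedom. In it 0 of 18500 genes passed a Benjamini-Hochberg adjusted p of 0.05 for time or for genotype (0% in each direction). The lowest adjusted p among the 24 genes was 0.283 for time, shared by Ugt2b1 and others, and 0.997 for genotype. At an unadjusted limma p of 0.05, 16 of the 24 stood below it for time, beside 15.4% of all genes, and 0 for genotype, beside 2.37%. In this fit Ugt2b1 had a time effect of -3.23 with a standard error of 0.194. The residual of the fit is the difference between the genotypes' responses, so Sult1e1 and Ugdh have large errors in it by construction. Likewise the small error of Ugt2b1 reflects responses that differed by 0.32. It is no measure of agreement between replicate livers.

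Other genes on these conjugation routes were followed as 5 lists. Shares over all genes stand in brackets beside their counts, in the order higher and lower in wildtype, then higher and lower in YAP-KO. In the list for UDP-glucuronate supply and the glucuronate pathway, 10 of 11 genes were above the filter; in wildtype 2 were at least 2-fold higher and 4 lower, and in YAP-KO 1 was higher and 0 lower (all genes: 12.7%, 5.88%, 4.74% and 2.22%). Its median responses were -0.55 and -0.46, where 0.07 is the median over all genes in each genotype. Rgn, encoding the lactonase of vitamin C synthesis, read 18.14 then 13.39 in wildtype and 17.81 then 17.04 in YAP-KO. Gulo, encoding the last enzyme of vitamin C synthesis in mice, read 14.94 then 11.86 in wildtype and 15.05 then 14.59 in YAP-KO. Both had 1 low array, wildtype at 24 h. Pgm2, a phosphoglucomutase gene, was higher at 24 h, with levels of 7.14 then 11.42 in wildtype and 7.52 then 8.87 in YAP-KO. Xylb, the xylulokinase gene, had responses of -1.75 and -0.46.

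In the sulfate and PAPS list, 11 genes were above the filter, with 1 at least 2-fold higher and 4 lower in wildtype, and 0 higher and 3 lower in YAP-KO (all genes: 12.7%, 5.88%, 4.74% and 2.22%). The median responses were -0.26 and -0.10. Suox, encoding sulfite oxidase, which makes sulfate, read 12.53 then 9.05 in wildtype and 12.24 then 10.61 in YAP-KO. The sulfate transporter gene Slc26a1 read 10.17 then 7.24 in wildtype and 9.41 then 8.94 in YAP-KO. Tst, encoding a mitochondrial sulfurtransferase, had responses of -2.65 and -0.45, and Ethe1, encoding persulfide dioxygenase, -1.78 and -1.15. Other members, named after their values were seen, went the other way between the genotypes: Got1, an aspartate aminotransferase gene, had responses of -0.26 and -1.56, and the PAPS transporter gene Slc35b3, the 1 gene higher in wildtype, had 1.09 and -0.07. Papss2 was lower at 24 h alongside Suox in both genotypes, and alongside Slc26a1 at 2-fold in wildtype.

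The list for hydrolysis of glucuronides and sulfates has 8 genes, of which 7 were measured and 6 were above the filter. It includes Sumf1 and Sumf2, which do not encode hydrolases of these conjugates. In wildtype 1 was at least 2-fold higher and 0 were lower, and in YAP-KO 0 were past 2-fold either way (all genes: 12.7%, 5.88%, 4.74% and 2.22%). With 6 genes these counts are close to the shares over all genes. The median responses were 0.14 and 0.08. The arylsulfatase gene Arsg had responses of 1.29 and 0.54, Arsb -0.90 and -0.17, Arsa -0.41 and 0.04 and the beta-glucuronidase gene Gusb 0.36 and 0.22. Of 10 conjugate transporter genes 9 were above the filter, with 2 at least 2-fold higher and 3 lower in wildtype, and 0 higher and 4 lower in YAP-KO (all genes: 12.7%, 5.88%, 4.74% and 2.22%). The median responses were -0.28 and -0.36. The uptake transporter genes Slco1b2 and Slco1a1 had responses of -4.37 and -3.87 in wildtype and -1.34 and -1.25 in YAP-KO. A further uptake transporter gene, Slco1a4, went the other way between the genotypes, with -0.28 in wildtype and -1.12 in YAP-KO. The 2 genes higher in wildtype were Abcc1 (1.41, and 0.79 in YAP-KO) and Abcc4 (1.26, and 0.92 in YAP-KO). Abcc2, the canalicular exporter of conjugates, had responses of -1.5 and -0.18. Abcc3, the basolateral exporter of glucuronides, read 12.89 then 12.99 in wildtype and 12.74 then 11.55 in YAP-KO, so YAP-KO at 24 h was its 1 low array.

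Of 20 transcription factors known to act on conjugation genes in liver, 19 were measured and 18 were above the filter. In wildtype 0 were at least 2-fold higher and 6 lower at 24 h, and in YAP-KO 0 were higher and 4 lower (all genes: 12.7%, 5.88%, 4.74% and 2.22%). The medians were -0.55 and -0.68, the lower one in YAP-KO. Cebpa had responses of -2.43 and -1.28, the bile acid receptor gene Nr1h4 -2.42 and -0.75, the xenobiotic receptor gene Nr1i3 -2.27 and -0.84, and Ppara -1.86 and -0.33. Of the 4 genes lower in YAP-KO, the 3 besides Cebpa, named after their values were seen, were lower by less in wildtype: Hnf4a had responses of -0.90 and -1.45, the aryl hydrocarbon receptor gene Ahr -0.58 and -1.02, and Nfe2l2, encoding NRF2, -0.41 and -1.02.

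**Figure D4:**
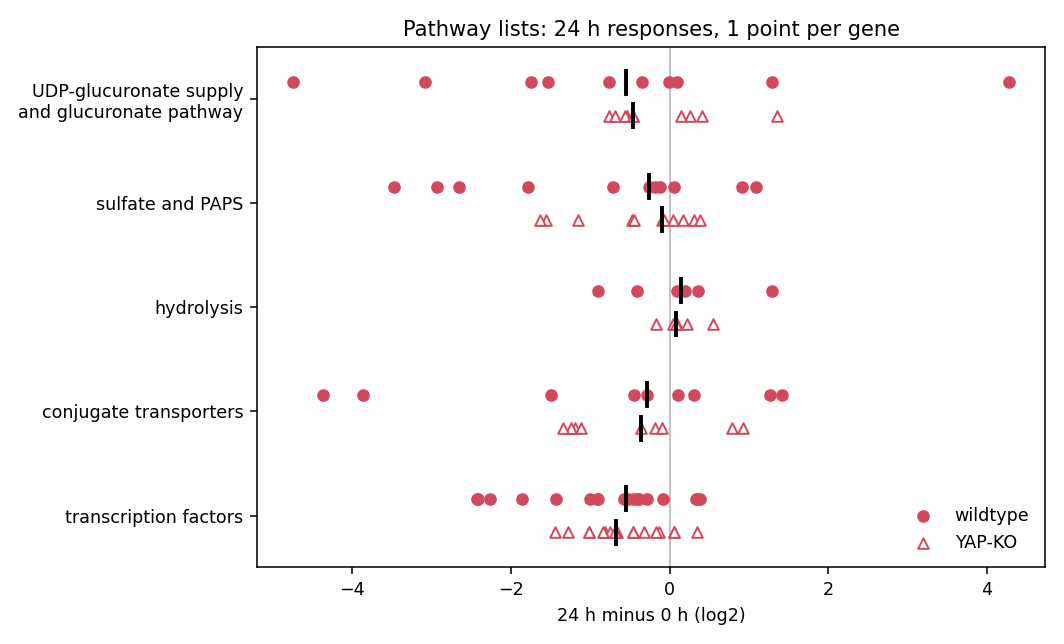
24 h minus 0 h difference (log2) of the genes above the filter in 5 pathway lists, 1 point per gene, for wildtype (filled circles) and YAP-KO (open triangles); black bars are medians over the list. Wildtype points reach from -4.75 (Rgn) to 4.28 (Pgm2), and YAP-KO points from -1.63 (Suox) to 1.35 (Pgm2).

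The tissue label and the targeted gene were checked on the same arrays. Yap1 read 7.54 then 8.24 in wildtype and 6.31 then 6.01 in YAP-KO. All 9 measured hepatocyte markers lay between 19.08 and 19.93, close to the top value of each array (19.83 to 19.93), and readings at the top value have no known difference between arrays. Cps1 and Tat were the 2 whose wildtype 24 h reading lay below that value by more than 0.5, at 19.08 and 19.30. Lymphocyte and kidney tubule markers had means of 4.03 to 4.26. Intestinal epithelium markers had higher means, 6.35 to 6.92. Among them Fabp2 read 11.73 to 12.87 and Lgals4 5.4 to 6.33, while Vil1 and Cdx2 read 3.63 to 4.6. The array medians over all probe sets were 4.32 to 4.47. None of the 35 genes reached the top value of an array, the highest reading being 18.46.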

How the data were processed

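Expression in whole mouse liver was read from 4 single-channel arrays, 1 per combination of genotype and time. The deposited values are taken as log2 from their range, because the log base is stated nowhere in the labels or the file; the sources used here do not give the summarisation, background correction or normalization that the authors applied. Trizol-extracted RNA received a biotin label with the GeneChip WT Plus kit, per the labels' protocols. Of 65956 probe sets, the platform annotation gave 31388 a single gene, 1362 several and 33206 none. Entrez identifiers brought the symbols up to RefSeq (GRCm38.p6). The brightest probe set stood for a gene, and the 18500 genes at or above the 40th percentile of the 30827 mean levels were kept. All members of the rule were taken into account, and each of the 19 above the filter that passed 2-fold in any contrast, or that carries cofactor supply or acetaminophen sulfation, is given with every array value. Members and lists were chosen with earlier results of these data known. Differences compare single arrays; called means 2-fold or more. The array number limits precision, and no p-value is given for a single-array difference. The additive fit used limma 3.58.1 (R 4.3.3). It was tested on data simulated with changes equal in both genotypes, unlike several genes here. Differences were computed in Python 3.11.15. Alternatives changed the scaling, the probe-set rule, the filter, the fold threshold and the baseline array.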

Additional observations from a re-analysis of the deposited data

Results flagged for a closer look

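Ugdh was picked out because its 24 h responses pointed in opposite directions, each by more than 1.5-fold: 1.17 in wildtype and -1.25 in YAP-KO. The difference of the responses was -2.42 and was not tested, as each rests on 2 single arrays. Wildtype read 11.26 then 12.43 (0 h then 24 h) and YAP-KO read 12.43 then 11.18.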

How the results depend on the processing

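Under quantile normalization each difference of the 19 genes given in full kept its direction where it was at or past 2-fold. Each also moved by less than 1.5-fold (95 of 95 values). The same 95 of 95 under array median centring and the mean of probe sets was fixed in advance and is no check. Centring shifts each array by a constant of -0.067 to 0.082, and each of these 19 genes has 1 probe set of its own. Values near 2-fold crossed it. Quantile normalization gave 13 genes in place of 12 lower at 24 h in YAP-KO, as Sult1a1 entered (-1.11), and, as Ugt2b34 entered (1.18 and 1.0), 5 in place of 4 higher in YAP-KO at 24 h and 7 in place of 6 with a higher response in YAP-KO. Centring gave 5 in place of 6 there, as Ugt3a2 dropped to 0.96, and so did a filter at the 60th percentile, which also left 14 in place of 15 lower in wildtype. Centring moved the median of all genes kept from 0.07 to 0.22 in wildtype and to 0.17 in YAP-KO for the 24 h responses; against these the medians over the conjugation genes were -1.53 and -0.95. With no filter on dim genes the wildtype median over the genes was -0.54 in place of -1.68, since 11 dim genes enter; the YAP-KO median was -0.53 in place of -1.05, so the genotypes' medians nearly coincided, and that of the difference of responses was 0.25 in place of 0.49. With 1.5-fold as the threshold, 2 genes in place of 1 were higher at 24 h in YAP-KO, 2 in place of 0 were lower in YAP-KO than wildtype at 0 h, 8 in place of 4 were higher in YAP-KO at 24 h, and 11 in place of 6 had a higher response in YAP-KO. Against the 0 h array of the other genotype, a choice added after the data were seen, 1 gene in place of 2 was higher at 24 h in wildtype, as Ugdh dropped out. That baseline moved 6 of 38 single-gene responses by 1.5-fold or more, both of Ugdh, Sult1c2 and Ugt3a1, and left 14 genes lower in wildtype and 13 in YAP-KO. The limma fit called 0 genes under all of its 5 alternatives. The alternative that counts shared Ugt1a probe sets was not run, as none was annotated; the shared Ugt2a1 and Ugt2a2 probe set was counted in its place, after the data were seen, and changed no count. Leaving out the members at the top value changed nothing, as none was there. No paired analysis was possible because each group has 1 array, so the groups share only 1 replicate number.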
